A study of Homo sapiens with 32 samples.

Results

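JPT2, RAB10, NECTIN1 and TRO are 4 transcripts that the study named for lower N6-methyladenosine (m6A) during differentiation toward β-like cells. All of their peaks are covered here, 29 of the 26104 merged peaks of the count table, in 4 of its 7978 genes. JPT2 has 10 of these peaks, RAB10 3, NECTIN1 9 and TRO 7. The genes were chosen by the study on m6A measured in these same libraries, at S3 against S0 and at the later steps from stage to stage. Every change between stages is therefore given as a description, with a standard error (SE) and no p-value. Where such a change is said to be called, this marks only that it passed the limits of the fit over all peaks, and nothing is supported with it, and where none was called the number under an unadjusted p of 0.05 is given only as a count. The enrichment averaged over stages, and how far H1 and MEL1 differ in m6A or in a change between stages, are also given as descriptions, because regions entered the table through IP reads in these libraries and the genes through their stage changes. Tests are given for the input difference between the lines averaged over stages and for the input of related genes.

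The cells came from the human embryonic stem cell lines H1 and MEL1, which were taken before differentiation (S0) and at 3 later points of a culture protocol. The S3 cells are posterior foregut, the S4 cells are progenitors of the pancreas, and those of S6 resemble β cells that are not yet mature. Each line was sampled in 2 RNA preparations at each stage, 16 in all, and the lines carry no other treatment in the labels. Purified and fragmented mRNA of each preparation was sequenced directly (input) and after pull-down with an m6A antibody (IP), which gave 32 libraries. Each later stage is a culture carried forward from stem cells, so fewer cells of a type and less RNA per cell cannot be told apart in any value below.

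The input libraries held 2652830 to 6879256 counted reads and the IP libraries 2378881 to 15674899. The IP libraries of MEL1 at S4 were the shallowest, with 2483580 and 2378881 reads against 11661733 and 13999180 in H1 at S4. All 6 foregut markers (FOXA1, FOXA2, HNF4A, GATA4, GATA6 and CXCR4) were called higher in input at S3 than at S0, and 4 of the 5 measured markers of undifferentiated cells were called lower. At S4 all 3 measured progenitor markers (PDX1, SOX9 and MNX1) were called higher than at S0. So were, at S6, all 3 measured endocrine markers (GLIS3, ISL1 and CHGA). PDX1, MNX1, GLIS3 and ISL1 were already called higher at S3, where CHGA was called lower. No progenitor marker was called at S4 against S3, and of the endocrine markers only CHGA was called at S6 against S4. The other listed progenitor and endocrine markers, INS among them, were not measured. The 2 measured hepatic markers were called higher at S3, where their summed level was 142 to 16969 CPM (counts scaled to a common library depth) against 0.0 to 8.92 at S0. They were also called higher than at S0 at S4 and S6, at 47.7 to 45753 and 20.1 to 1717 CPM. The 2 measured neural markers, STMN2 and NEFL, were called higher at S6, at 155 to 721 CPM against 16.3 to 29.2 at S0. The study counts STMN2 among γ-cell identity genes, so that its rise is not particular to neural cells. The single measured mesenchymal marker was not called at any stage, with 33.3 to 630 CPM at S4 against 94.4 to 146 at S0. The part of these other cell types in the values below was not tested. Mitochondrial transcripts held 41.0% and 32.5% of the input reads of MEL1 at S0, against 12.9% to 16.5% in the other MEL1 input libraries and 11.6% to 27.5% in H1.

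m6A is a methyl mark placed on adenosines of mRNA by a writer complex that contains METTL3 and METTL14, removed by FTO and ALKBH5 and read by YTH-domain proteins, and it is best known for shortening the life of transcripts, including those that hold stem cells in their undifferentiated state. A transcript often carries 1 dominant marked region, commonly near the stop codon or in the 3′ end, and weaker regions elsewhere. NECTIN1 encodes an immunoglobulin-like adhesion protein of adherens junctions. TRO encodes trophinin, a MAGE-family membrane protein first known from adhesion of the embryo to the uterus. RAB10 encodes a small GTPase that guides vesicles from the Golgi and endosomes to the cell surface. JPT2, a homolog of the Jupiter microtubule-associated protein of flies, also binds the calcium-mobilizing messenger NAADP.

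Peaks are written as the gene and the listed position within it, such as JPT2_3251. IP over input is the log2 ratio of the CPM of both libraries of a preparation, scaled by TMM (trimmed mean of M-values) and with 0.5 reads added to each count, so that 0 stands for equal CPM in IP and input. A peak or gene is called where the Benjamini-Hochberg adjusted p of edgeR's quasi-likelihood test, over all peaks or genes, is under 0.1 and the change is at least 2-fold.

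Input levels of the 4 transcripts took different courses. TRO was called higher at S3 than at S0, with a log2 fold change of 1.10 (SE 0.17), and at S4 it lay just under 2-fold (0.99, SE 0.16). NECTIN1 had its lowest mean at S3 and its highest at S6, and was called higher at S6 than at S3 (1.61, SE 0.32) and at S4 (1.37, SE 0.31). JPT2 and RAB10 were not called at any step, and the values of RAB10 at S3 lay lower than at S0 in H1 and higher in MEL1. These are 1 of 4 genes at S3 against S0, where 28.8% of all genes were called, and 1 of 4 at S6 against S4 and at S6 against S3, where 5.18% and 14.0% were. None of the 4 was called at S4 against S3, S4 against S0 or S6 against S0, against 1.84%, 31.2% and 31.4% of all genes. In edgeR 0, 2 and 1 of the 4 had an unadjusted p under 0.05 at these steps, against 1073, 4008 and 3982 of all 7973 genes tested.

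TRO had 136 and 146 CPM in H1 at S0 and 105 and 111 in MEL1. At S3 it had 243 and 245 in H1 and 279 in both MEL1 preparations, so that all S3 preparations lay above all S0 preparations. At S4 the level was 237 and 317 in H1 and 235 and 198 in MEL1, and at S6 it was 288 and 291 in H1 and 197 and 195 in MEL1. The order of the stage means was S3, S4, S6 and S0, and the neighbours S3, S4 and S6 (261 ± 20.2, 247 ± 49.9 and 243 ± 54.0 CPM, SD, n = 4) lay within their spread.

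NECTIN1 had 155 and 150.1 CPM in H1 at S0, 121 and 123 at S3, 114 and 101 at S4 and 188 and 176 at S6. In MEL1 it had 186 and 179 at S0, 45.04 and 53.3 at S3, 100.4 and 85.6 at S4, and 340.2 and 322 at S6. Both lines lay lower at S3 and S4 than at S0 and highest at S6, with the lowest values at S4 in H1 and at S3 in MEL1. The order of the means was S6, S0, S4 and S3 (257 ± 86.6, 168 ± 17.5, 100.4 ± 11.8 and 85.7 ± 42.4 CPM, SD, n = 4), and S4 and S3 lay within their spread.

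RAB10 had 50.002 and 66.4 CPM in H1 at S0 and 37.8 and 37.7 at S3. In MEL1 it had 26.5 and 45.7 at S0 and 71.1 and 99.5 at S3. At S4 the H1 values were 47.4 and 37.6 and those of MEL1 89.5 and 124, and at S6 they were 59.1 and 59.5 in H1 and 59.0 and 66.2 in MEL1. The lines therefore lay apart at S3 and S4 and together at S6, and the stage means, from 47.2 ± 16.4 at S0 to 74.5 ± 39.7 at S4 (SD, n = 4), did not differ beyond their spread.

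JPT2 had 327 and 317 CPM in H1 and 368 and 371 in MEL1 at S0. It had 359 and 346 in H1 and 382 and 314 in MEL1 at S3. The S4 values were 291 and 241 in H1 and 373 and 324 in MEL1, and those at S6 were 399 and 381 in H1 and 402 and 361 in MEL1. Its stage means, 346 ± 27.8, 350.1 ± 28.6, 307 ± 55.9 and 386 ± 18.8 CPM (SD, n = 4) at S0, S3, S4 and S6, were highest at S6 and lowest at S4.

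**Figure D1:**
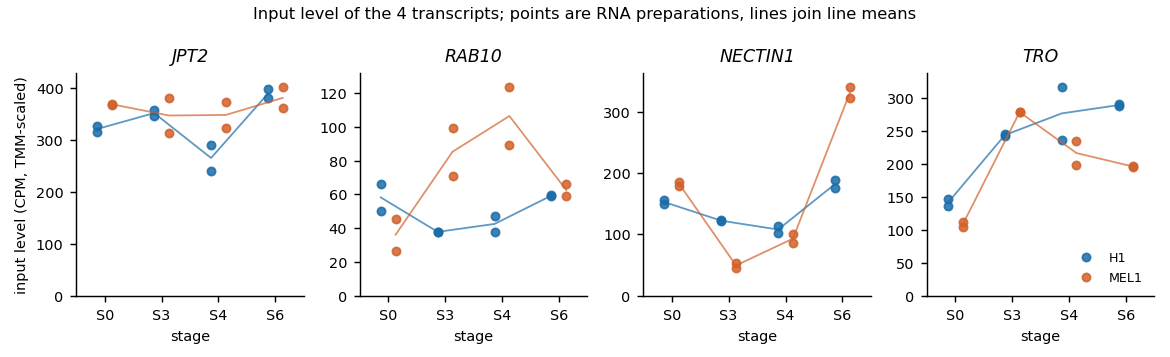
Input level of the 4 transcripts (CPM, vertical axis from 0) in each RNA preparation at the 4 stages; points are preparations, blue for H1 and orange for MEL1, and lines join the means of a line. TRO is higher from S3 on in both lines, NECTIN1 in MEL1 lies at 45.04 and 53.3 CPM at S3 and at 340.2 and 322 at S6, and RAB10 lies higher in MEL1 than in H1 at S3 and S4.

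Averaged over stages, no member was called different between the lines in input, against 19.1% of all genes (edgeR's quasi-likelihood test). The terms were stage and line, so the spread in this test also holds how far the lines diverge in their course over stages. In the same edgeR test the log2 difference, MEL1 minus H1, was 0.48 for RAB10 (SE 0.25, adjusted p = 0.146), 0.14 for JPT2 (SE 0.10, adjusted p = 0.303), -0.09 for NECTIN1 (SE 0.22, adjusted p = 0.784) and -0.28 for TRO (SE 0.12, adjusted p = 0.0696). Of the 4, only TRO had an unadjusted p under 0.05. The lines also lay apart in the course over stages, a comparison that was added after the data were seen and is given without p-values. The S3 change of RAB10 was 1.87 higher in MEL1 (SE 0.34) and that of NECTIN1 1.57 lower (log2 -1.57, SE 0.20), which are the 2 of 4 members called, against 34.0% of all genes. Both kept their call without any 1 preparation, at 1.52 to 2.31 and -1.74 to -1.43. TRO differed by 0.58 (SE 0.20), which is under 2-fold.

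From S3 to S4 the input of NECTIN1 differed between the lines by 1.10 (SE 0.20), 1 of 4 members called against 9.65% of all genes. From S4 to S6 NECTIN1 differed by 1.08 (SE 0.19) and RAB10 by -1.26 (SE 0.33), 2 of 4 called against 15.3%. Without MEL1 S3 replicate 1 the first NECTIN1 difference was 0.99, and without every stage of MEL1 replicate 1 it was 0.87. The other was 0.99 without H1 S4 replicate 1, 0.94 without MEL1 S4 replicate 2 and 0.96 without every stage of MEL1 replicate 2, all under 2-fold. The RAB10 difference lost its call without every stage of H1 replicate 2, at -1.12.

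In each transcript 1 peak held most of the IP reads. NECTIN1_4452 held 94.6% of the IP reads of its gene over all libraries and 45.5% of its input reads, RAB10_1 97.6% and 75.3%, TRO_5551 85.7% and 44.6%, and JPT2_1801 65.7% and 25.5%. In IP over input averaged over the stages, TRO_5551 was at a log2 value of 2.65 (SE 0.17) and NECTIN1_4452 at 1.29 (SE 0.22), both at least 2-fold above 0. JPT2_1801 was at 0.99 (SE 0.11), just under 2-fold, and TRO_1251 at 0.30 (SE 0.12). The other 25 peaks lay below 0, from -0.48 for TRO_351 to -5.83 for NECTIN1_6902. Of the 29 peaks 2 were called above and 19 below 0, against 32.1% and 36.3% of all peaks. The merged peaks were called by the authors on these IP libraries, a region can enter the table through a peak in few of them, and the dominant peaks were picked by their IP reads, so that these values describe the peaks and test nothing. Other scalings of the libraries moved the median enrichment of all peaks by -0.48 (RLE, relative log expression) and 0.28 (TMM within IP and within input), so that this division is relative to the scaling. Under RLE NECTIN1_4452 was at 0.81, under 2-fold, and TRO_5551 was at 2.17.

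At S3 none of the 4 dominant peaks was called and only RAB10_1 among them was fitted lower. Of the other 25 peaks 24 were fitted lower, all but TRO_4051. The fitted change from S0 to S3 was 0.59 (SE 0.60) for NECTIN1_4452, 0.49 (SE 0.30) for JPT2_1801, 0.16 (SE 0.46) for TRO_5551 and -0.79 (SE 0.77) for RAB10_1. A second division, by IP over input averaged over the 4 stages, puts RAB10_1 with the peaks that have less IP than input and TRO_1251 with those that have more. Of the 25 peaks with less IP than input 24 were fitted lower, with a median of -2.11, where the median of all 13112 such peaks was -0.47 with 69.1% lower. The 4 peaks with more IP than input had a median of 0.33, against -0.01 for all 12992 such peaks. The average includes S3, so that a lower value at S3 itself moves a peak toward the first class, and the genes were chosen on this same change, so that nothing can be read from these medians. Over all genes, peaks of that class held 20.3% to 21.7% of the IP reads in the 4 libraries of S0 and 15.7% to 16.4% in those of S3, and the part of this difference between the libraries in the members' changes was not tested. Members called lower were JPT2_3251 and RAB10_651, 2 of 29, where 0.0192% of all peaks were, and nothing can be read from their ratio because the genes were chosen on this comparison. With a block for the RNA preparation, which pairs each IP with its input library, 1 member was called. Also 1 was called without H1 S0 replicate 2, H1 S3 replicate 1, any 1 MEL1 preparation of S0 or S3, or every stage of MEL1 replicate 1. No member was called without both MEL1 S0 preparations, or without every stage of H1 replicate 1, H1 replicate 2 or MEL1 replicate 2, while 5 members were called in H1 alone and 12 in MEL1 alone.

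**Figure D2:**
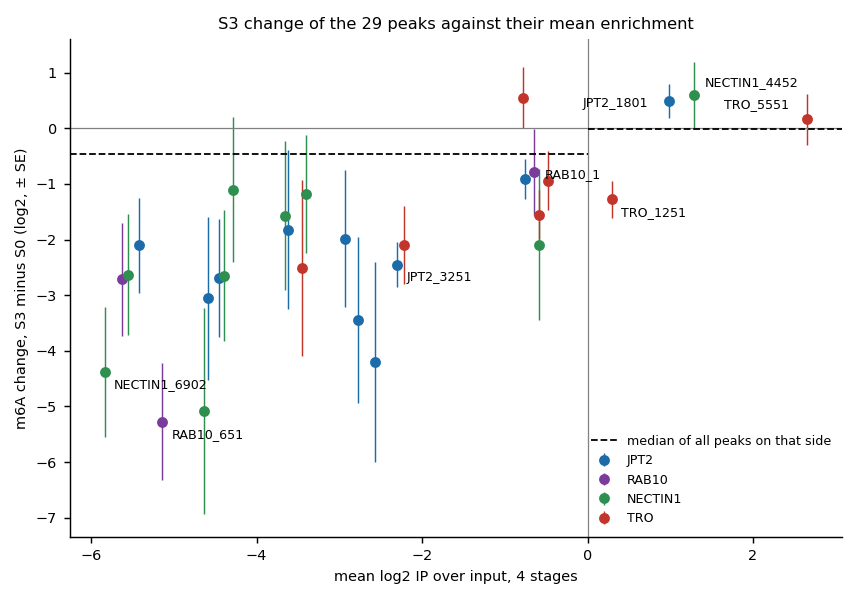
m6A change from S0 to S3 (vertical axis, log2, bars are ± SE) of the 29 peaks against their IP over input averaged over the 4 stages (horizontal axis, log2), colored by gene; dashed lines are the medians of all 13112 peaks below 0 (-0.47) and of all 12992 above 0 (-0.01). The dominant peaks TRO_5551, NECTIN1_4452 and JPT2_1801 lie on the right near no change, and the lowest changes belong to peaks far on the left.

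NECTIN1_4452 had log2 IP over input of 1.49 and 1.82 in H1 at S0 and 0.69 and -0.07 in MEL1. At S3 it had 1.86 and 1.64 in H1 and 1.53 and 0.95 in MEL1, near the S0 values in H1 and above both of them in MEL1. At S4 it had 2.68 and 2.34 in H1 against -0.16 and 0.86 in MEL1, and at S6 1.25 and 1.43 against 0.51 and 0.96. The H1 value lay above that of MEL1 at every stage, and no stage change of this peak was called. Its share of the NECTIN1 IP reads was 74.8% to 96.5% at S0, 96.2% to 99.9% at S3, 81.2% to 97.8% at S4 and 98.2% to 99.2% at S6.

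The other 8 NECTIN1 peaks were all fitted lower at S3, from -1.11 for NECTIN1_5252 to -5.08 for NECTIN1_6802. NECTIN1_6902, the one with the smallest p, had 2 and 1 IP reads in H1 and 22 and 10 in MEL1 at S0. It had 0 and 1 in H1 and 0 in both MEL1 libraries at S3, and at most 1 in any later library. At S3 against S0 the pooled ratio of IP reads per depth was 0.0275 (95% exact interval 0.000676 to 0.163, counting error only). NECTIN1_6802 had 45 IP reads over the 4 libraries at S0 and none at S3, which is at least 15.6-fold lower in IP against a floor of 3 reads over the group. In MEL1 the input of NECTIN1 was itself at its lowest at S3, and NECTIN1_6902 had 4 and 18 input reads there.

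NECTIN1_4052 and NECTIN1_5602 show how far the lines lay apart in such peaks. NECTIN1_4052 had 26 and 48 IP reads in H1 at S0 and 52 and 36 at S3. In MEL1 it had 207 and 171 at S0 and 0 and 4 at S3. NECTIN1_5602 had 207 and 120 in MEL1 at S0 and 0 and 9 at S3, and in H1 24 and 6 and then 11 and 28. Only the MEL1 counts separate the stages.

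The other NECTIN1 peaks hold few IP reads at S3. NECTIN1_5252 had 7 and 5 in H1 and 38 and 37 in MEL1 at S0, and 2 and 13 in H1 and 0 in both MEL1 libraries at S3. NECTIN1_6502 had 20 and 13 in H1 and 107 and 93 in MEL1 at S0, and 7, 12, 0 and 1 at S3 in the same order. NECTIN1_6702 had 6, 10, 14 and 31 at S0 and 2, 5, 0 and 0 at S3. In these 3 peaks the MEL1 counts of the stages lie apart, and so do the H1 counts of NECTIN1_6502 and NECTIN1_6702. NECTIN1_7452 had 27, 38, 25 and 11 at S0 and 9, 7, 1 and 0 at S3, and it was highest in H1 at S4, with 157 and 92.

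TRO_5551 is the strongest of the 29 peaks in IP over input. It had 2.65 and 2.54 in H1 and 2.61 and 2.25 in MEL1 at S0, and 2.71, 2.70, 2.77 and 2.59 at S3 in the same order. At S4 it had 3.58 and 2.34 in H1 and 2.08 in both MEL1 preparations, and at S6 2.89, 3.04, 2.60 and 2.79. All 16 values lie between 2.08 and 3.58, and both MEL1 values at S4 lie under the rest. At S4 the input of this peak in H1 was 404 reads in replicate 1 and 1432 in replicate 2, beside IP reads of 14228 and 16366.

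TRO_1251, near the other end of the transcript, lay lower in IP over input at S3 than at S0 in both lines. Its IP over input was 1.51 and 1.26 in H1 and 1.21 and 1.10 in MEL1 at S0. At S3 it was 0.11 and 0.22 in H1 and -0.41 and 0.11 in MEL1, and no S3 value reached an S0 value. The lowest values came at S4, -0.62 and -0.75 in H1 and -0.43 and -0.64 in MEL1, and at S6 it was again higher, at 0.54 and 0.68 in H1 and 0.22 and 0.43 in MEL1. The fitted change at S3 was -1.28 (SE 0.33) and was not called, that at S4 against S0 was -1.88 (SE 0.34) and called lower, and that from S4 to S6 was 1.08 (SE 0.33) and called higher. Its share of the TRO IP reads was 12.4% to 14.6% at S0 and 3.64% to 6.66% at S3, while its share of input reads was 13.9% to 18.8% and 11.8% to 18.4%.

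The neighbours TRO_351, TRO_901 and TRO_1901 were also fitted lower at S3, by -0.94, -1.55 and -2.10, lower again at S4 and higher from S4 to S6 in the fit over both lines. TRO_901 took this course in each line. TRO_351 changed by 0.04 (SE 0.39) from S3 to S4 and -0.44 (SE 0.39) from S4 to S6 in H1, against -2.00 (SE 0.44) and 2.30 (SE 0.44) in MEL1, and TRO_1901 by -0.13 (SE 0.87) from S3 to S4 in MEL1, against -3.02 (SE 0.82) in H1. TRO_901 had 392 and 469 IP reads in H1 at S0, 340 and 399 at S3, 69 and 76 at S4 and 290 and 469 at S6, against input reads of 51 and 44, 94 and 106, 77 and 167, and 131 and 103. At S3 these IP counts lay near those of S0 while the input counts were higher, as was the input of the whole transcript. In MEL1 its IP reads were 428 and 491 at S0, 126 and 194 at S3, 16 and 14 at S4 and 181 and 151 at S6. TRO_4051 went the other way, with 1438 and 1559 IP reads in H1 at S4 against 92 to 458 at the other stages, and it was called higher at S4 than at S3 (1.79, SE 0.56) and lower at S6 than at S4 (-1.81, SE 0.56). In MEL1 it had 279 and 309 IP reads at S3, 85 and 88 at S4 and 172 and 141 at S6, with changes of 0.25 (SE 0.40) and -0.48 (SE 0.41) against 2.81 (SE 0.39) and -2.69 (SE 0.39) in H1, so that both calls rest on H1.

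RAB10_1 lies at the start of the listed positions and held 76.8% to 98.1% of the RAB10 IP reads at S0 and 98.0% or more at S3. Its IP over input was 0.47 and 0.18 in H1 and -0.44 and -2.03 in MEL1 at S0. At S3 it was -0.70 and -0.69 in H1 and -0.64 and -1.38 in MEL1, lower in H1 and within the S0 range in MEL1. At S4 the lines lay far apart, with 0.49 in both H1 preparations against -2.51 and -3.39 in MEL1, and at S6 the values were -0.87 and -0.97 in H1 and -0.07 and -0.20 in MEL1. No stage change of RAB10_1 was called.

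RAB10_651 had 3 and 13 IP reads in H1 and 14 and 35 in MEL1 at S0. At S3 it had 0 and 1 in H1 and 0 in both MEL1 libraries. No later library held more than 2. Input stayed at 9 to 27 reads in all 16 libraries. The pooled ratio of IP reads per library depth at S3 against S0 was 0.0148 (95% exact interval 0.000369 to 0.0854, counting error only), from 1 read against 65. RAB10_651 was called lower at S3 and also at S4 and S6 against S0, and its calls rest on these counts. RAB10_501 had 10 and 3 IP reads in H1 and 32 and 18 in MEL1 at S0, and 2, 4, 4 and 0 at S3 in the same order.

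JPT2_3251 was the decrease with the most IP reads behind it among the peaks called at S3. It had 466 and 487 IP reads in H1 and 933 and 1238 in MEL1 at S0. At S3 it had 164 and 150 in H1 and 98 and 145 in MEL1, with input of 417 and 348 in H1 and 495 and 392 in MEL1 against 318 and 287, and 573 and 445, at S0. IP over input thus went from -0.98, -1.05, -1.01 and -0.51 at S0 to -3.05, -2.99, -4.20 and -3.11 at S3, without overlap in either line. The fitted change was -2.45 (SE 0.40), between -2.60 and -2.18 without any 1 preparation or any 1 number of a line. It was -2.01 (SE 0.34) in H1 and -2.88 (SE 0.34) in MEL1, and the difference between the lines was not called (-0.87, SE 0.48). It was called with DESeq2 (-1.15) and without every stage of MEL1 replicate 2 (-1.19).

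At S4 JPT2_3251 was at -2.29 and -2.19 in H1 and -2.40 and -2.34 in MEL1, and at S6 at -2.28 and -2.19 in H1 and -3.75 and -3.12 in MEL1. All later values lay below all S0 values, and the peak was called lower at S4 (-1.45, SE 0.40) and at S6 (-1.83, SE 0.40) against S0. In contrast JPT2_1801 on the same transcript was at 1.29, 1.12, 0.52 and 1.02 at S0 and at 1.21, 1.34, 1.44 and 1.89 at S3, in the order H1 then MEL1. At S4 it was at 1.10 and 0.86 in H1 and 0.15 and 0.60 in MEL1, and at S6 at 0.57 and 0.72 in H1 and 0.89 and 1.22 in MEL1. All S3 values lay above all S4 values, the other pairs of stages overlap, and no change of JPT2_1801 was called.

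Of the remaining JPT2 peaks, JPT2_2201 had 17 and 52 IP reads in H1 and 241 and 240 in MEL1 at S0, and 46 and 51 in H1 and 3 and 10 in MEL1 at S3. JPT2_3751 had 16, 36, 79 and 140 at S0 and 5, 13, 13 and 0 at S3, in the order H1 then MEL1. JPT2_2701 had 6, 3, 9 and 84 at S0 and 8, 2, 0 and 0 at S3. JPT2_3101 had 3, 7, 32 and 53 at S0 and 7, 2, 0 and 7 at S3. Only in JPT2_3751 do the H1 counts also lie lower at S3 in both preparations, and in all 4 the MEL1 counts of the stages do not overlap.

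A comparison within the transcript is free of the scaling between libraries. The share of the gene's IP reads in a peak was divided by the share of its input reads, with 0.5 added to each count. From S0 to S3 the log2 of this quotient changed by -2.12 for JPT2_3251, -1.35 for TRO_1251, -4.05 for RAB10_651 and -3.31 for NECTIN1_6902. It changed by 0.81 for JPT2_1801, 0.26 for NECTIN1_4452, 0.17 for RAB10_1 and 0.09 for TRO_5551, and the IP shares of the last 3, 66.3% to 98.1% at S0, had limited room to rise. With the other peaks of the gene as the denominator in place of the whole gene, the changes of these 4 were 1.66, 3.13, 3.51 and 1.30 in the same order, and those of JPT2_3251 and TRO_1251 were -2.30 and -1.47. The rise of a dominant peak on this scale and the fall of the other peaks of its gene are the same measurement. With 5 added in place of 0.5, the values of RAB10_651 and NECTIN1_6902 were -1.54 and -1.43, so that their size rests on few reads, and those of JPT2_3251 and TRO_1251 were -2.09 and -1.32.

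**Figure D3:**
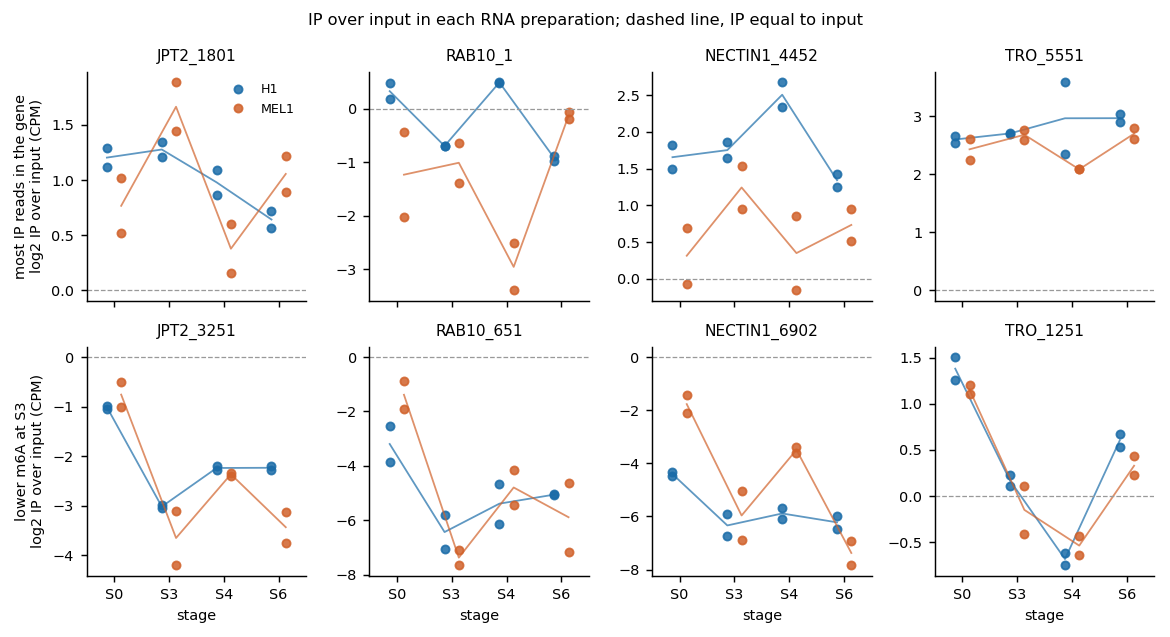
IP over input (log2, vertical axis) in each RNA preparation by stage; upper row, the peak with the most IP reads of each gene; lower row, the peak with the smallest p among those lower at S3. Points are preparations, blue for H1 and orange for MEL1, and lines join the means of a line; JPT2_3251 goes from between -1.05 and -0.51 at S0 to between -4.20 and -2.99 at S3, while TRO_5551 stays between 2.25 and 2.77 at both stages.

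The peaks with less IP than input, RAB10_1 among them, had the lower median change in MEL1. Over these 25 peaks, 23 were fitted lower at S3 in MEL1 with a median of -4.13, and 17 in H1 with a median of -0.97. The medians over all peaks of that kind were -0.33 in MEL1 and -0.37 in H1. In H1 5 of 10 JPT2 peaks, 3 of 3 RAB10 peaks, 5 of 9 NECTIN1 peaks and 5 of 7 TRO peaks were fitted lower. In MEL1 9, 2, 8 and 5 were.

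The IP reads of these 25 peaks, summed, were 246 and 253 CPM in H1 at S0 and 170.3 and 173 at S3. In MEL1 they were 358 and 347 at S0 and 152 and 171 at S3. MEL1 thus started higher and the lines met at S3. The MEL1 libraries of S0 are also those with the high mitochondrial share in input, and the part of this in the difference was not tested. Without any IP read were 0 of 25 peaks in both MEL1 libraries at S0 and 13 and 11 of 25 at S3, against 1 and 0 and then 3 and 1 in H1. Among all peaks with at least 20 input reads, a limit that was not set for the 25 and makes the counts unlike, the share without an IP read was 3.52% in MEL1 at S0 and 5.10% at S3, and 0.621% and 0.742% in H1. The part of these empty peaks in the differences between the lines was not tested.

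Between the lines, 6 of 29 peaks were called different in the S3 change, all with the larger decrease in MEL1, against 12.2% of all peaks. Peaks whose IP reads lie mainly in MEL1 at S0 entered the table and the choice of genes through those libraries, so that nothing can be read from this count. The 6 were JPT2_1451 (-1.96, SE 0.38), JPT2_751 (-6.95, SE 1.35), JPT2_601 (-4.41, SE 0.92), NECTIN1_4052 (-3.82, SE 0.95), NECTIN1_6502 (-4.66, SE 1.55) and JPT2_2851, whose fitted size is no bound because both MEL1 libraries at S3 were at 0. Among the 6, JPT2_1451 is the one with at least 594 IP reads in every S0 and S3 library. It had 594 and 822 IP reads in H1 at S0 and 1041 and 1043 at S3, and 1814 and 2014 in MEL1 at S0 and 758 and 780 at S3. Its change was 0.14 (SE 0.27) in H1 and -1.82 (SE 0.27) in MEL1.

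JPT2_601 had 23 and 17 IP reads in H1 at S0 and 24 and 27 at S3, and in MEL1 94 and 141 at S0 and 9 and 6 at S3. JPT2_751 had 20 and 21, then 50 and 46 in H1, and 179 and 139, then 0 and 5 in MEL1. In JPT2_2851 the lines had 0 and 3, then 4 and 6 IP reads in H1, and 44 and 61, then 0 and 0 in MEL1. Each of the 3 was at or above its S0 count in H1 and far under it in MEL1. Without every stage of H1 replicate 1, or of H1 replicate 2, none of the 6 was called, and without MEL1 S0 replicate 1, or every stage of MEL1 replicate 1 or 2, 10, 11 and 10 peaks were. With thinned IP libraries JPT2_2851, NECTIN1_4052 and NECTIN1_6502 lost their call, and with the block for the RNA preparation NECTIN1_6502 did. None of the 4 dominant peaks was called, and neither was TRO_1251, with changes of -1.22 in H1 and -1.32 in MEL1 (difference -0.11, SE 0.45).

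**Figure D4:**
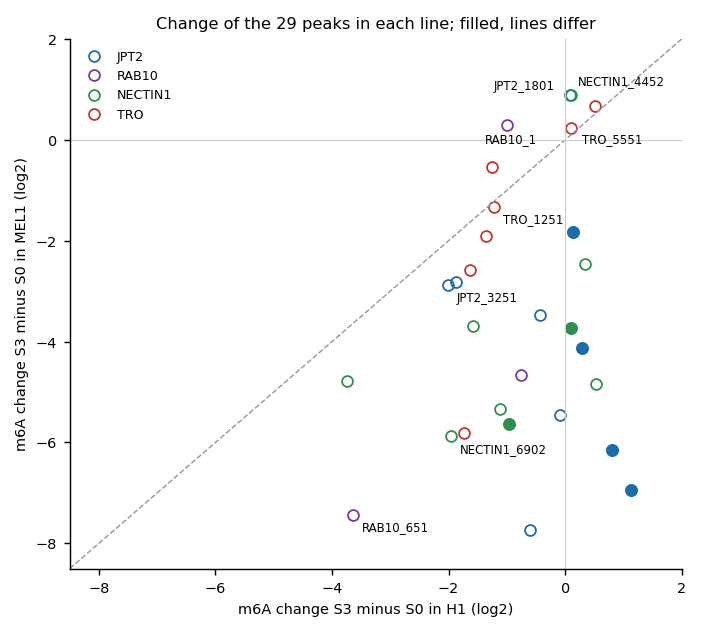
m6A change from S0 to S3 (log2) of the 29 peaks in H1 (horizontal axis) and MEL1 (vertical axis), colored by gene; the dashed line marks equal change and filled points are the 6 peaks called different between the lines. Most points lie under the dashed line, TRO_1251 (-1.22 and -1.32) lies next to it, and JPT2_1801, NECTIN1_4452 and TRO_5551 lie above 0 on both axes.

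Averaged over stages, 5 of 29 peaks were called different in m6A between the lines, against 18.7% of all peaks. RAB10_1 (-1.18, SE 0.21), NECTIN1_4452 (-1.12, SE 0.17), NECTIN1_7452 (-3.44, SE 0.83) and TRO_901 (-1.002, SE 0.21) lay lower in MEL1, and JPT2_751 higher (2.01, SE 0.66). The median of all peaks in this comparison was -0.22 with TMM and was moved by 0.27 under RLE and 0.24 under scaling within IP and within input. Under RLE RAB10_1 was at -0.91, NECTIN1_4452 at -0.86 and TRO_901 at -0.73, all under 2-fold. Without any 1 preparation, or any 1 number of a line, RAB10_1 lay between -1.35 and -0.71, under 2-fold without H1 S4 replicate 1, MEL1 S0 replicate 2 or every stage of MEL1 replicate 2. NECTIN1_4452 lay between -1.26 and -0.82, under 2-fold without H1 S4 replicate 1 or every stage of MEL1 replicate 1. TRO_901 sits at the limit itself and ranged from -1.25 to -0.49, and NECTIN1_7452 ranged from -4.64 to -2.32 and lost its call without every stage of H1 replicate 1. The other dominant peaks, JPT2_1801 (-0.06, SE 0.13) and TRO_5551 (-0.30, SE 0.16), were not called. JPT2_751 was no longer called with the block for the RNA preparation, without MEL1 S3 replicate 2 (1.06), MEL1 S6 replicate 2 (0.82) or every stage of H1 replicate 1 (1.66), and it was at -0.27 without every stage of MEL1 replicate 2.

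After S3 the members moved in both directions. From S3 to S4, JPT2_601 and TRO_901 (-1.78, SE 0.45) were called lower, and NECTIN1_6802 and TRO_4051 (1.79, SE 0.56) higher, where 5.85% of all peaks were called lower and 0.751% higher. With the block for the RNA preparation 2 members were called, and none was without H1 S4 replicate 1 or every stage of H1 replicate 1 or 2, 1 without either H1 preparation of S3 and 2 without either MEL1 preparation of S3. JPT2_601 had 66 IP reads over the 4 libraries at S3 and none at S4, at least 12.4-fold lower in IP against a floor of 3 reads over the group. NECTIN1_6802 had 14 IP reads in 1 MEL1 library and 2 in 1 H1 library at S4 against 0 at S3, so its fitted rise is no bound. From S4 to S6, TRO_901 (1.98, SE 0.45), TRO_1251 (1.08, SE 0.33), TRO_1901 (2.51, SE 0.76) and JPT2_601 were called higher and TRO_4051 (-1.81, SE 0.56), NECTIN1_4052 (-4.04, SE 1.16) and TRO_3051 lower, against 5.31% and 2.26% of all peaks. With the block 4 members were called, and 0 were without every stage of H1 replicate 1 or 2, 1 without H1 S6 replicate 1, 2 without every stage of MEL1 replicate 2, 3 without H1 S4 replicate 1, H1 S4 replicate 2 or H1 S6 replicate 2, and 4 without either MEL1 preparation of S6 or every stage of MEL1 replicate 1. JPT2_601 had 21 IP reads over the S6 libraries against none at S4. TRO_3051 had 2 IP reads at S6 and 43 at S4, a pooled ratio of 0.0293 (95% exact interval 0.00343 to 0.112, counting error only). All 43 were in MEL1, both reads at S6 were in H1, and in H1 alone the change was in the other direction (1.44).

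Relative to S0, 10 of 29 peaks were called lower and TRO_4051 (2.34, SE 0.56) higher at S4, against 10.3% and 1.01% of all peaks. The 10 lower peaks are JPT2_601, JPT2_3251, JPT2_3751, RAB10_651, NECTIN1_6702, NECTIN1_6902, TRO_351, TRO_901, TRO_1251 and TRO_1901. Among those with over 10 IP reads in each S0 and S4 library the values were -1.45 (JPT2_3251), -1.57 (TRO_351), -1.88 (TRO_1251) and -3.34 (TRO_901). TRO_351 changed by -1.22 (SE 0.40) in H1 and -2.55 (SE 0.44) in MEL1. TRO_4051 changed by 3.33 (SE 0.40) in H1 and 0.93 (SE 0.42) in MEL1, where it stayed under 2-fold. Of the 29 peaks 3 were called, in either direction, without H1 S4 replicate 1, and 2 and 5 without every stage of H1 replicate 1 and 2. At S6, 8 of 29 were called lower against 1.18% of all peaks. They are JPT2_601, JPT2_1451, JPT2_3251, RAB10_501, RAB10_651, NECTIN1_4052, NECTIN1_6702 and NECTIN1_6902, with 27 of 29 fitted lower, and JPT2_1451 was at -1.49 (SE 0.36). This peak changed by -0.41 (SE 0.27) in H1 and -2.48 (SE 0.27) in MEL1, so that its call rests on MEL1. With the block, RLE or scaling within library type 1 member was called, and 0 with thinned IP libraries or no term for the cell line. The fit shares its spread over all stages, and 0 were called without H1 S4 replicate 1, although S4 does not enter this comparison. None was called either without any 1 MEL1 preparation of S0 or S6 or any 1 number of a line, 1 was without H1 S3 replicate 1 or either H1 preparation of S6, and 3 were without H1 S3 replicate 2. S4 and S6 against S0 share the S0 libraries with the comparison on which the genes were chosen. No member was called at S6 against S3 in edgeR, with an unadjusted p under 0.05 in 1 member, none of all 26104 peaks called and 756 under an unadjusted 0.05. The changes at S4 and the calls at S6 are relative to the scaling, since RLE moved the median S4 change against S0 by 0.46 and that against S3 by 0.47, and the median S3 change by -0.02.

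**Figure D5:**
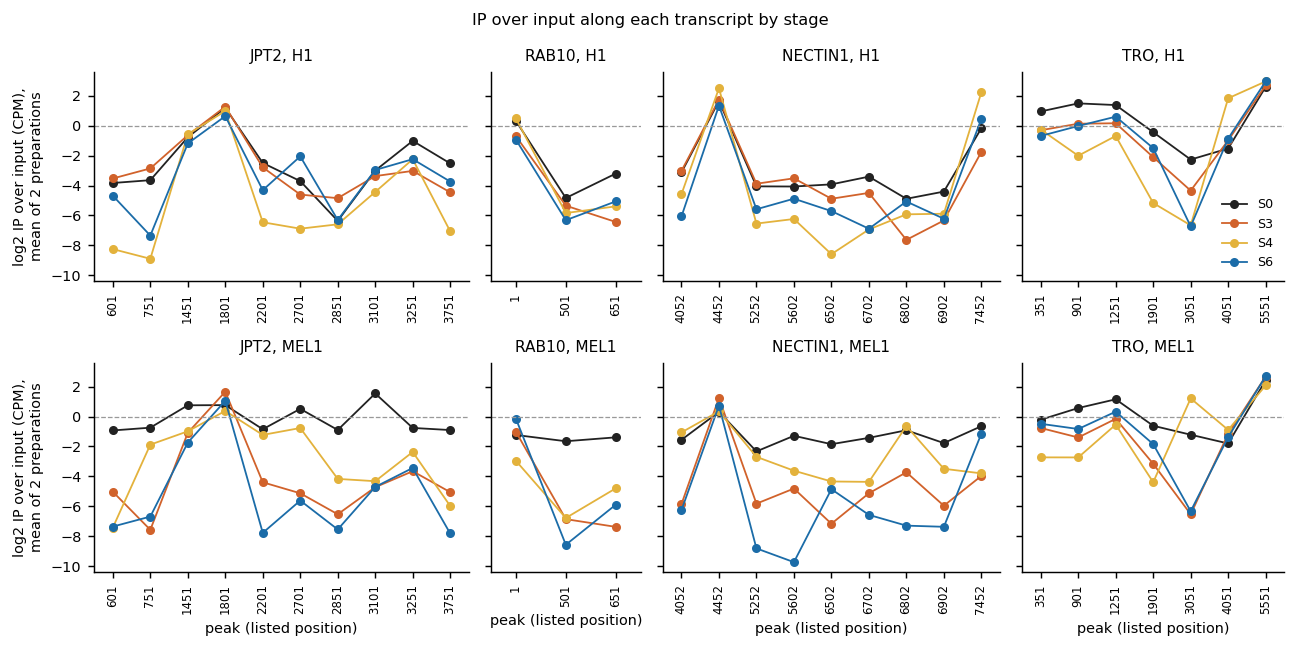
IP over input (log2, mean of 2 preparations, vertical axis) of every peak in the order of its listed position (horizontal axis, peaks evenly spaced), for H1 (upper row) and MEL1 (lower row), colored by stage; the dashed line marks IP equal to input. In MEL1 the S0 line (black) lies above the other stages in most JPT2 and NECTIN1 peaks, while the stages draw together at JPT2_1801, NECTIN1_4452 and TRO_5551.

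The lines also differed in the later steps, where the shallow IP libraries of MEL1 at S4 enter. From S3 to S4, 13 of 29 peaks differed (9 higher and 4 lower in MEL1), against 29.4% of all peaks, and from S4 to S6, 16 of 29 (6 higher and 10 lower), against 21.1%. RAB10_1 was among both, with -3.16 (SE 0.61) and 4.29 (SE 0.61), from 600 and 660 IP reads in H1 and 48 and 41 in MEL1 at S4. NECTIN1_4452 differed by -1.60 (SE 0.48) and 1.51 (SE 0.47), and TRO_4051 by -2.56 (SE 0.56) and 2.21 (SE 0.56). JPT2_1801 differed from S4 to S6 by 1.003 (SE 0.38). With every IP library thinned to 1 depth, 8 and 9 peaks were called in place of 13 and 16.

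The other called peaks are TRO_351 at both steps (-2.05 and 2.73), TRO_1901 from S3 to S4, NECTIN1_5602, NECTIN1_6802 and NECTIN1_7452 from S4 to S6, and at both steps JPT2_751, JPT2_2201, JPT2_2701, JPT2_2851, NECTIN1_4052, NECTIN1_5252, NECTIN1_6502 and TRO_3051. Most of these hold 0 IP reads in at least 1 of the libraries compared, and their counts tell more than a fold. TRO_3051 had 0 IP reads at S4 in H1 and 26 and 17 in MEL1, and 0 and 2, and 0 and 0, at S6.

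Related genes were measured in the same tables. Among 14 genes of nectin and cadherin adhesion 9 had a merged peak, and 4 rose in input at S3 against S0, where 28.8% of all genes were called. These were CDH2, the N-cadherin of mesenchymal and neural cells (3.25, SE 0.35), PVR, a nectin-like receptor (2.65, SE 0.43), CADM3 (2.43, SE 0.46) and CADM4 (1.04, SE 0.27), both adhesion molecules that bind nectins or one another. None fell, and the median of the 9 was 0.79 against -0.02 over all genes. NECTIN2 was at 0.79 (SE 0.28) and NECTIN3 at -0.19 (SE 0.47), beside -0.99 (SE 0.31) for NECTIN1, and the differences between them were not tested. None of the 61 peaks of these 9 genes was called at S3, against 13 of all 26104 peaks, and 44 were fitted lower, with a median of -0.54.

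Of 33 relatives and regulators of RAB10, 22 were measured. EXOC7, a subunit of the exocyst that tethers vesicles at the cell surface, rose at S3 (1.75, SE 0.18), and TBC1D4, a GTPase-activating protein for RAB10, fell (-1.03, SE 0.26), 2 of 22 against 28.8% of all genes, with a median of the list of 0.02. Of their 81 peaks 0 were called at S3, against 13 of all 26104, and 2 were lower at S6, against 1.18% of all peaks. RAB10 itself was at 0.24 (SE 0.35) at S3.

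Of 12 MAGE genes and trophinin partners 10 were measured, 2 rose at S3 and 5 at S6 against S0, and none fell, where 28.8% and 31.4% of all genes were called. MAGED4 (1.16, SE 0.28) and MAGED4B (1.14, SE 0.28) rose at S3, and because they are near-identical copies their counts cannot be assigned with certainty. At S6 these and MAGEL2 (2.74, SE 0.35), MAGED1 (1.66, SE 0.41) and NDN (1.23, SE 0.19) were higher. The medians were 0.47 at S3 and 0.80 at S6, where all genes had -0.02 and 0.03, and TRO was at 1.10 and 0.96. Of their 43 peaks 0 were called at S3 and 3 were lower at S6, against 1.18% of all peaks. Of 7 genes tied to JPT2 or NAADP, LSM12, an NAADP-binding protein, and TPCN1, an endolysosomal two-pore channel, were measured. At S6 against S0 LSM12 fell (-1.04, SE 0.19) and TPCN1 rose (1.33, SE 0.58), against 31.4% of all genes called, and none of their 6 peaks was called at either stage. In edgeR's test the adjusted p-values of the related genes named as risen or fallen run from 2.64e-06 for EXOC7 to 0.0757 for TPCN1.

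Over the 16 input libraries the genes most like each member in log2 CPM were ACTR2 (Pearson r 0.875) and DCAKD (0.831) for JPT2, CDC34 (0.943) and TSC22D4 (0.930) for RAB10, TUT1 (0.931) and NOTCH1 (0.920) for NECTIN1, and FAM181B (0.955) and BCL7A (0.945) for TRO. These are the 2 highest of all genes tested for each member, over libraries that share lines and stages. Among the members themselves r lay between -0.41 (NECTIN1 and TRO) and 0.36 (JPT2 and NECTIN1).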

How the data were processed

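The authors counted mapped reads in small bins along the genes of an Ensembl annotation, called peaks, merged them over libraries and deposited raw read counts per merged peak and library, made with MeRIPtools. Libraries were made with a stranded mRNA kit. The aligner, the genome build and whether the counting used strand are not given in the sources used here, so that no coordinates are printed and reads of overlapping antisense genes may be mixed. The table holds 26104 peaks in 32 libraries, 0 other columns of values and 7978 genes. The deposited counts are per peak where counts per gene had been foreseen, so the input of a gene is the sum over its merged peaks. Depth is given as ranges over the libraries and for the IP libraries of S4, and counting intervals cover counting error only.

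Counts were fitted with edgeR 4.0.16 (R 4.3.3) by quasi-likelihood with TMM scaling, over all peaks or genes with a total of at least 10. Terms were stage, cell line and, for m6A, library type with its product with stage. The input difference between the lines averaged over stages came from this fit with stage and cell line. For the m6A differences between the lines, and for every line difference in a change between stages, a mean per line and stage was fitted. The SE is the log2 change divided by the root of F. Calls need an adjusted p under 0.1 and 2-fold. Alternatives were DESeq2 1.42.0, RLE, scaling within library type, no or another filter on low counts, each line alone, IP alone, 2 stages only, replicate blocks and leaving out preparations. Thinning of the IP libraries, leaving out both MEL1 preparations of S0 or of S4, and the input difference between lines in the stage changes were added after the data were seen. Scripts were tested on simulated data, and figures were drawn with matplotlib 3.10.9.

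Input and IP of 1 preparation come from the same RNA, since the input is set aside before the pull-down. The main fits leave this pairing out, and an alternative fits it as a block for the RNA preparation. Deviations of input and IP from the group mean correlated at -0.31 to 0.14 over the 8 groups. The study calls the samples of each line independent biological samples. The p-values come from the input fit with terms for stage and cell line. Their spread is that between these preparations and also holds how far the lines diverge in their course over stages.

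The members and gene lists were chosen with earlier results of these data known. In each gene the peak with the most IP reads and the peak with the smallest p among those lower at S3 are described in full, and every peak called between stages or between the lines is named; other peaks given as examples were chosen after their values were seen.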

Additional observations from a re-analysis of the deposited data

Results flagged for a closer look

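In 4 of 48 groups of 4 preparations 1 value lay far from the others, where chance marks about 1 in 20 groups. All 4 are MEL1 values, beside groups that pool both lines. RAB10 input at S6 was 66.2 CPM in MEL1 replicate 2, with the others at 59.0 to 59.5. JPT2_3251 at S0 was at a log2 IP over input of -0.51 in MEL1 replicate 2, with the others at -1.05 to -0.98. JPT2_3251 at S3 was at -4.20 in MEL1 replicate 1, with the others at -3.11 to -2.99. RAB10_1 at S3 was at -1.38 in MEL1 replicate 2, with the others at -0.70 to -0.64.

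The fitted m6A change between stages differed between the lines, past the limits of edgeR's fit, in 6 peaks for S3 against S0, which is a description because the peaks and genes were chosen on these libraries. The log2 differences, MEL1 minus H1, were -4.41 for JPT2_601, -6.95 for JPT2_751, -1.96 for JPT2_1451, -3.82 for NECTIN1_4052 and -4.66 for NECTIN1_6502. The fitted -8.07 for JPT2_2851 depends on the prior count, because its MEL1 libraries at S3 hold no IP read. It also differed in 13 peaks for S4 against S3 and in 16 peaks for S6 against S4. In input, also as a description, the lines differed for RAB10 by 1.87 from S0 to S3 and by -1.26 from S4 to S6, and for NECTIN1 by -1.57 from S0 to S3, 1.10 from S3 to S4 and 1.08 from S4 to S6.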

How the results depend on the processing

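Numbers of members called, with the alternatives that moved them by over 1.5 times, were as follows, and the cause was not tested. Input, S3 against S0 (1 called): 2 with DESeq2, RLE or only 2 stages, 0 in H1 alone, 3 in MEL1 alone, and 0 to 2 leaving out preparations. Input, other steps: S4 against S0 (0) 2 in MEL1 alone and 0 to 1 leaving out preparations, S6 against S0 (0) 1 in H1 alone and 0 to 1, S6 against S3 (1) 0 in H1 alone, S6 against S4 (1) 0 in H1 alone and 0 to 1. The input line difference gave 0 to 1 for S4 against S3 (1 called) and 1 to 2 for S6 against S4 (2).

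m6A, S3 against S0 (2): 6 with DESeq2, 5 in H1 alone, 12 in MEL1 alone, 8 with IP alone, 1 with thinned IP, only 2 stages, the replicate block by RNA preparation or by line and number, 0 without both MEL1 S0 preparations, and 0 to 2 leaving out preparations (0 without every stage of H1 replicate 1, H1 replicate 2 or MEL1 replicate 2). S4 against S3 (4): 7 with DESeq2 or without both MEL1 S4 preparations, 16 in H1 alone, 9 in MEL1 alone, 2 with no cell line term, only 2 stages or the preparation block, and 0 to 6. S6 against S4 (7): 13 in H1 alone, 11 in MEL1 alone, 4 with IP alone, only 2 stages or the preparation block, and 0 to 8. S4 against S0 (11): 6 with thinned IP or without both MEL1 S0 preparations, 7 in MEL1 alone or with RLE, 5 with only 2 stages, 18 without both MEL1 S4 preparations, and 2 to 13. S6 against S0 (8): 15 with DESeq2 or without both MEL1 S4 preparations, 16 in MEL1 alone, 1 with RLE, scaling within library type or either block, 0 with thinned IP, no cell line term or without both MEL1 S0 preparations, and 0 to 10. S6 against S3 (0): 2 in H1 alone and 1 with IP alone. m6A, MEL1 minus H1 (5): 2 with thinned IP, RLE or scaling within library type, and 2 to 6. Line difference: S3 against S0 (6) 12 with DESeq2 and 0 to 11, S4 against S3 (13) 8 thinned and 5 to 15, S6 against S4 (16) 9 thinned and 2 to 17. Mean enrichment (21): 21 to 22.

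Signs turned in few values. TRO_1901 in the line difference of S4 against S3 ranged to 4.28 leaving out preparations and was at -3.23 without MEL1 S4 replicate 1 and -3.64 without every stage of MEL1 replicate 1, and NECTIN1_6502 in that of S6 against S4 at 0.39 and 0.51, with -7.31 at the other end. JPT2_751 in MEL1 minus H1 was between -0.27 (without every stage of MEL1 replicate 2) and 3.13, and TRO_3051 from S4 to S6 at 1.44 in H1 alone and 1.22 without both MEL1 S4 preparations. Same-numbered preparations of different stages correlated at 0.12 to 0.20 in all 6 pairs of stages in MEL1 input, at -0.05 to 0.05 in H1 input and at -0.25 to 0.33 in IP, so that the numbers are not shown to pair the libraries in both lines, and the block by line and number moved no input count.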
